A study of Mus musculus with 4 samples.

Results

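The genes described here encode 10 proteins of granulocytes, most of them stored in cytoplasmic granules: Prtn3, Elane, Mpo and Ctsg of the primary granule, Ltf, Ngp and Camp of the secondary granule, the cytosolic pair S100a8 and S100a9, and the eosinophil ribonuclease Rnase2a. Every probe set annotated to one of these symbols alone was taken, whatever its signal, which gave 10 probe sets, 1 for each gene, among the 12393 genes measured with 22690 probe sets. The genes were chosen on the difference between the genotypes on these same arrays, where Prtn3 and Rnase2a were known to have much lower signals in the knockout, together with other proteins of the same cells. The values of the 10 genes are therefore a description, and no test is given for them.

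The arrays compared gonadal white adipose tissue (WAT) of Fsp27 knockout and wild-type mice, all male, of the strain C57BL/6J and 3 months old. Fsp27, whose gene is now called Cidec, is a protein of the lipid droplet surface in white adipocytes. For each genotype, RNA of 5 mice was pooled and hybridized in duplicate, so that the 2 arrays of a genotype differ by technical spread and carry no measure of the spread between animals. No restriction of the deletion to a cell type is described in the sources used here.

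Granulocytes make their granule proteins in the bone marrow while they mature: primary granules fill first, at the promyelocyte stage, and secondary granules follow. The serine proteases and myeloperoxidase of the primary granule are thus transcribed chiefly in immature cells, whereas S100a8 and S100a9 are abundant transcripts of mature neutrophils. In WAT, resident eosinophils and macrophages are normal inhabitants, and few neutrophils are found in lean animals.

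Adipoq, the adipocyte hormone adiponectin, had signals of 44423 to 54068 on the 4 arrays. The lower quartile of all probe sets, taken here as the floor of an array, was 52.8 to 64.3, and the median was 165 to 193. The Spearman correlation of signals was 0.90 between the knockout duplicates, 0.94 between the wild-type duplicates and 0.89 to 0.91 between genotypes. Cidec gave 8564 and 8949 in the knockout and 20491 and 18255 in the wild type, a log2 difference of -1.14 (SE 0.15, limma adjusted p = 5.7e-04). The sources used here do not say whether the deletion covers its probe set, and the signal that remains is no check of the genotype.

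Prtn3, the serine protease proteinase 3, and Elane, neutrophil elastase, are next to each other on chromosome 10, and the 250 bases before the start of each gene are shown because the arrays placed these neighbours on opposite sides. Both sequences, from RefSeq (GRCm38.p6, plus strand), hold AGGAAGT, the type of motif read by ETS factors such as PU.1, and, nearer the start, the core of the box that positions transcription, TATAA. Capitals mark both.
Prtn3, chr10:79879417-79879666: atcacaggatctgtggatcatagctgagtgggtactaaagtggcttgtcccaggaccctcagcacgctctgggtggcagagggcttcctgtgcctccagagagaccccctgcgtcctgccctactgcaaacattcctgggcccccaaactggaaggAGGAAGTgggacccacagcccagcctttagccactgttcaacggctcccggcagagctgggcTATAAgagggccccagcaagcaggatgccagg
Elane, chr10:79886062-79886311: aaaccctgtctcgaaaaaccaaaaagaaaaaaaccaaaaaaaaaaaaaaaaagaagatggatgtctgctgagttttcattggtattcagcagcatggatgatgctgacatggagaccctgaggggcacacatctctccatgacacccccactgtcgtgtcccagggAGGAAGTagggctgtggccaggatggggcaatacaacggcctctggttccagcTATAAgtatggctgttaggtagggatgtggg
AGGAAGT began 94 bases before the start of Prtn3 and 84 bases before that of Elane, and TATAA 32 and 31 bases before it.

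Prtn3 gave signals of 14.3 and 21.9 in the knockout and 207 and 750.0 in the wild type. The genotypes did not overlap, and both knockout signals were below the floor of their arrays. In bulk tissue such as this, fewer cells of a type and less RNA per cell cannot be told apart. The mean was 18.1 ± 5.35 in the knockout and 479 ± 384 in the wild type (SD, n = 2 arrays), 26.5-fold apart, and the difference of log2(signal + 16) was -3.61. With each knockout signal raised to the floor of its array, the wild-type mean was 8.71-fold higher. The wild-type duplicates themselves differed by 1.78 on the log2 scale, a gap larger than in 99.9% of 6471 probe sets with a mean signal within a factor of 2. Without the first wild-type array the difference was -4.50, and without the second it was -2.72.

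Elane ran the other way, with signals of 94.2 and 162 in the knockout and 15.7 and 9.15 in the wild type. The mean was 128 ± 47.9 in the knockout and 12.4 ± 4.62 in the wild type (SD, n = 2 arrays), 10.3-fold higher in the knockout, and the log2 difference was 2.31. Both wild-type signals lay below the floor, and raising them to it left a 2.19-fold difference. Elane is thus a gene read near the floor: its mean over the 4 arrays was under 100, the limit below which genes were not tested. On the arrays, the percentile of Elane among all probe sets was 33.4 and 49.6 in the knockout and 10.2 and 6.87 in the wild type. For Prtn3 it was 10.4 and 15.0 in the knockout and 51.7 and 80.7 in the wild type.

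Mpo, myeloperoxidase, which makes hypochlorous acid, gave 110.2 and 231 in the knockout and 15.3 and 94.5 in the wild type. The genotypes did not overlap, but the second wild-type array came close to the first knockout array. The log2 difference was 1.59 and the ratio of means 3.11, or 2.15 with signals raised to the floor. Without the first wild-type array the log2 difference was 0.68. Ctsg, cathepsin G, gave 9.39 and 70.6 in the knockout and 13.2 and 4.37 in the wild type, and only 1 of its 4 signals exceeded the floor of its array. The genotypes overlapped, so that the primary granule genes did not share a direction.

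The motif AGGAAGT of Prtn3 and Elane was also found before Mpo and Ctsg, here shown in 30-base windows because all 4 primary granule genes held it, and before S100a8 on the other strand (all RefSeq, GRCm38.p6, written in the direction of the gene, motif in capitals).
Mpo, chr11:87793550-87793579, plus strand: tggagagagagAGGAAGTtgcctttgtccc
Ctsg, chr14:56102762-56102791, minus strand: agaggaagaaaAGGAAGTagtcacctgttt
S100a8, chr3:90668888-90668917, plus strand: ccaacactcccACTTCCTcagactcagaaa
The motif began 223 bases before the start of Mpo and 206 bases before that of Ctsg. Searched on both strands of the 250 bases before the start, AGGAAGT occurred at 5 of the 10 genes and at 7.69% of all 32851 promoters. TATAA occurred at 4 of 10 (Prtn3, Elane, S100a8 and, on the other strand, Ctsg) and at 22.8% of all. TTGCNNAA, a C/EBP-type motif, occurred at 4 of 10 (Ltf, Ngp, S100a9 and Rnase2a) and at 9.56% of all. No matches overlapped. A match is a description of the sequence and not a binding site, and a part of these motifs in the signals was not tested.

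Of the secondary granule genes, Ngp, neutrophilic granule protein, gave 209 and 130.4 in the knockout and 176 and 98.7 in the wild type. Its genotypes overlapped, with a log2 difference of 0.29 that changed sign without the first knockout array (-0.02) or the second wild-type array (-0.08). Ltf, the iron-binding protein lactoferrin, gave 27.2 and 49.4 against 61.4 and 14.7 and overlapped too. Camp, the precursor of the antimicrobial peptide CRAMP, gave 41.0 and 7.92 in the knockout and 96.5 and 45.5 in the wild type. Its arrays were apart, lower in the knockout, with a log2 difference of -1.17. The margin between 41.0 and 45.5 was small, only 1 of the 4 signals was above the floor, and the ratio of means of 2.91 became 1.36 with signals raised to it.

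S100a8 and S100a9, neighbours on chromosome 3, encode the subunits of calprotectin and are usually made together. S100a8 gave 692 and 218 in the knockout and 255 and 287 in the wild type. It was the only one of the 10 genes with a signal of at least 100 on all 4 arrays, and the genotypes overlapped because the knockout duplicates lay on either side of the wild type. The gap between those duplicates, 1.60 on the log2 scale, was larger than in 99.3% of 6261 probe sets of like signal. The log2 difference was 0.51, and without the first knockout array it was -0.29.

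S100a9 gave 20.6 and 13.8 in the knockout and 93.4 and 50.05 in the wild type. The arrays were apart, lower in the knockout, at a log2 difference of -1.36, but only 1 of the 4 signals exceeded the floor, and the ratio of means of 4.17 became 1.33 with signals raised to it. Probe sets bind with different efficiency, so that the levels of the pair were not compared.

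**Figure D1:**
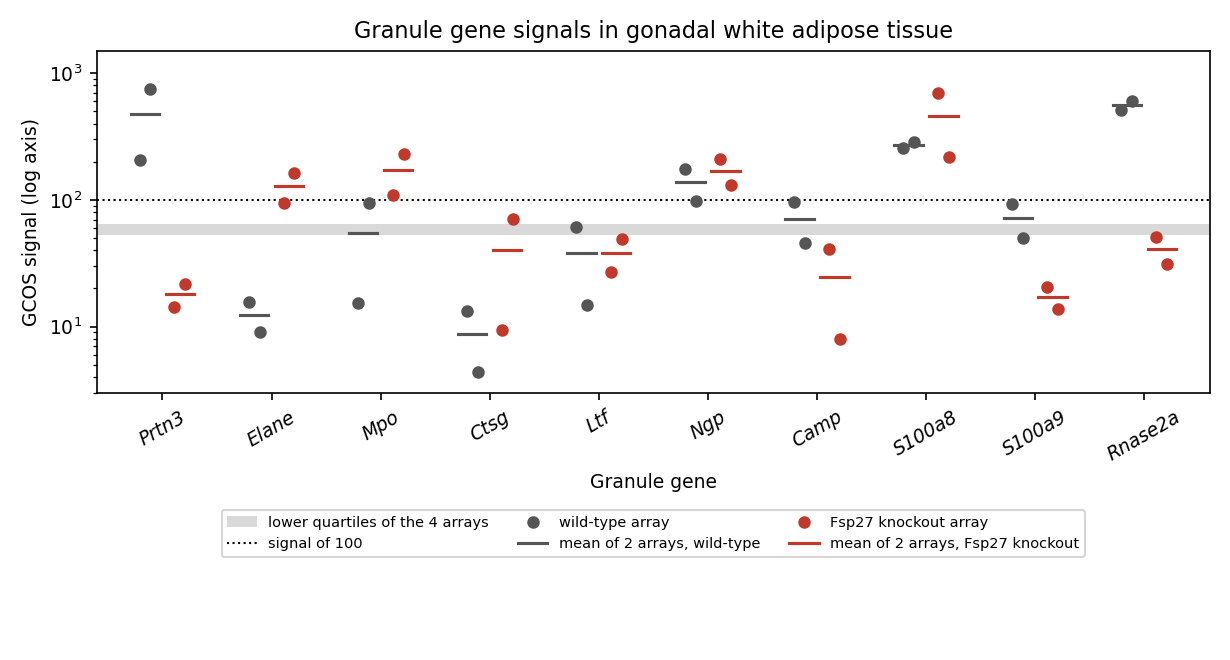
Signal on each of the 4 arrays (log axis) for the 10 genes by granule class, with short bars for the genotype means, a grey band over the lower quartiles of the 4 arrays and a dotted line at 100. Prtn3 and Rnase2a stand low in the knockout and high in the wild type, Elane runs the other way, and many points of the other genes lie in or below the band.

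Rnase2a, formerly Ear11, belongs to the eosinophil-associated ribonucleases, RNA-degrading proteins of eosinophil granules and of some macrophages. Its upstream sequence (RefSeq, GRCm38.p6, minus strand, written in the direction of the gene) is shown since it held neither AGGAAGT nor TATAA. Those of Ltf, Ngp, Camp and S100a9 held neither as well. Capitals mark TTGCNNAA.
Rnase2a, chr14:51256113-51256362: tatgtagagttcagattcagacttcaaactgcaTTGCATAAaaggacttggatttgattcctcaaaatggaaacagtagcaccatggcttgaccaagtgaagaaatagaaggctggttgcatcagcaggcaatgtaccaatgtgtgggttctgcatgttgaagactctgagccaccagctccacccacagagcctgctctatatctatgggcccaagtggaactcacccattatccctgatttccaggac
Rnase2a gave signals of 51.2 and 31.2 in the knockout and 511 and 602 in the wild type. The mean was 41.2 ± 14.1 in the knockout and 556 ± 64.7 in the wild type (SD, n = 2 arrays), 13.5-fold apart, and the log2 difference was -3.34. Both knockout signals were below the floor, and raising them to it left a 10.1-fold difference. Unlike Prtn3, the wild-type duplicates were close, 0.23 apart on the log2 scale, a gap larger than in 50.4% of 6115 probe sets of like signal. Leaving out any one array moved the difference between -3.59 and -3.08.

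Over the 10 genes, 4 had both knockout arrays below both wild-type arrays (Prtn3, Rnase2a, Camp and S100a9), 2 had both above (Elane and Mpo) and 4 overlapped. Over all 12393 genes measured, 26.8% were lower with arrays apart and 21.6% higher, and over the 3871 genes with a mean signal under 100 the shares were 16.7% and 19.2%. Because the genes were chosen with this contrast known, nothing is read from the counts. The median log2 difference was 0.21 over the 10 genes, -0.05 over all genes measured and -0.08 over the 8522 genes tested. The sign of the first rested on single arrays: it was -0.16 without the first knockout array, -0.06 without the second and -0.31 without the second wild-type array. The summed signal of the 10 was 1269 and 937 in the knockout and 1445 and 1956 in the wild type. Without Prtn3 and Rnase2a, the other 8 summed to 1204 and 883 in the knockout and 727 and 604 in the wild type, so that these 2 genes set the direction of the sum.

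Only 5 of the 10 genes reached a mean signal of 100 (Prtn3, Rnase2a, Mpo, Ngp and S100a8), and Prtn3, Rnase2a and Mpo did so through the genotype in which they were high. The floor was exceeded on both knockout arrays by 4 genes, on both wild-type arrays by 4, on all 4 arrays by 2 and on none by 1. With the highest bacterial trpn control probe set of each array as the floor in its place, 7 genes exceeded it on both wild-type arrays and 4 on both knockout arrays. That floor was lower in the wild type, at 9.94 and 28.7, than in the knockout, at 56.6 and 31.4, so that the counts of the genotypes are not alike in cut-off. As a second background, 20 genes of eye, pituitary and pancreas that fat should not express had medians of 42.1 and 86.0 in the knockout and 36.6 and 32.4 in the wild type. One of them, the elastase Cela1, was bright on every array, at 688 to 1437, and the next highest gene of that list reached 289, 213, 208 and 118 in the same order of arrays. Above that second level lay S100a8 alone on the first knockout array, Mpo and S100a8 on the second, Rnase2a and S100a8 on the first wild-type array, and Prtn3, Rnase2a and S100a8 on the second. Prtn3 on the first wild-type array stood no higher than that second brightest gene of other organs. Of the 20 genes, 7 had both knockout arrays above both wild-type arrays and 2 had both below. Crygb, one of the 7, gave 45.8 and 85.3 in the knockout and 3.44 and 5.95 in the wild type. Its ratio of means was 14.0, the largest of the 20 genes, beside 10.3 for Elane, both before signals were raised to the floor. The first knockout signal of Crygb was below the floor of its array, while both knockout signals of Elane were above it.

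**Figure D2:**
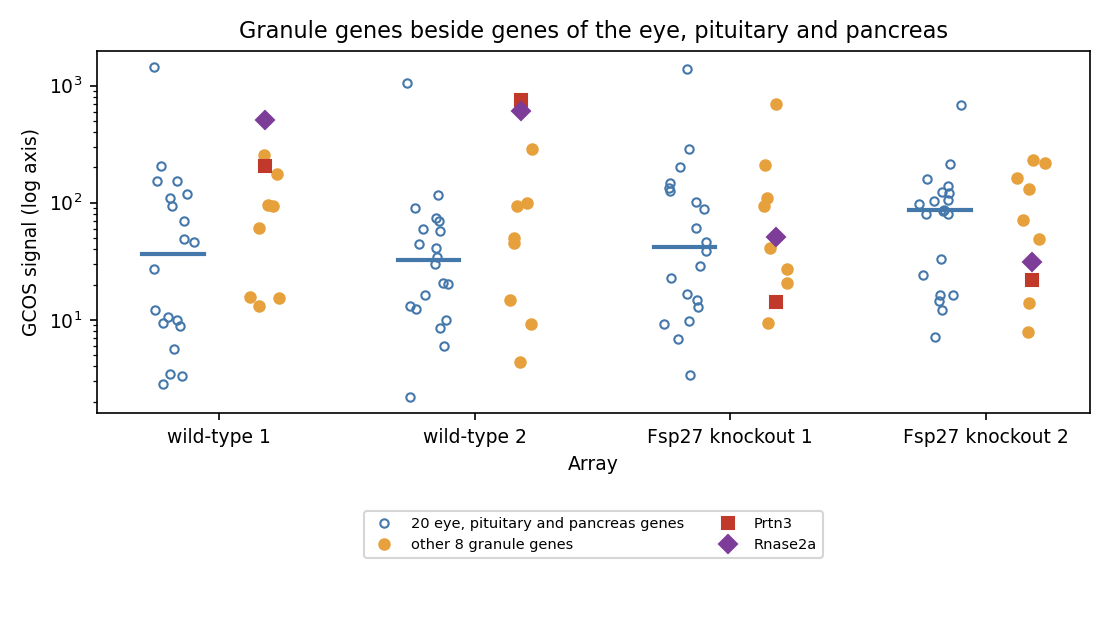
Signals of the 10 granulocyte genes beside those of 20 genes of eye, pituitary and pancreas on each array (log axis), with a line at the median of the latter. Few of the 10 genes rise above the second brightest gene of the other organs: S100a8 on each array, Rnase2a on both wild-type arrays, Prtn3 on the second of them and Mpo on the second knockout array.

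**Figure D3:**
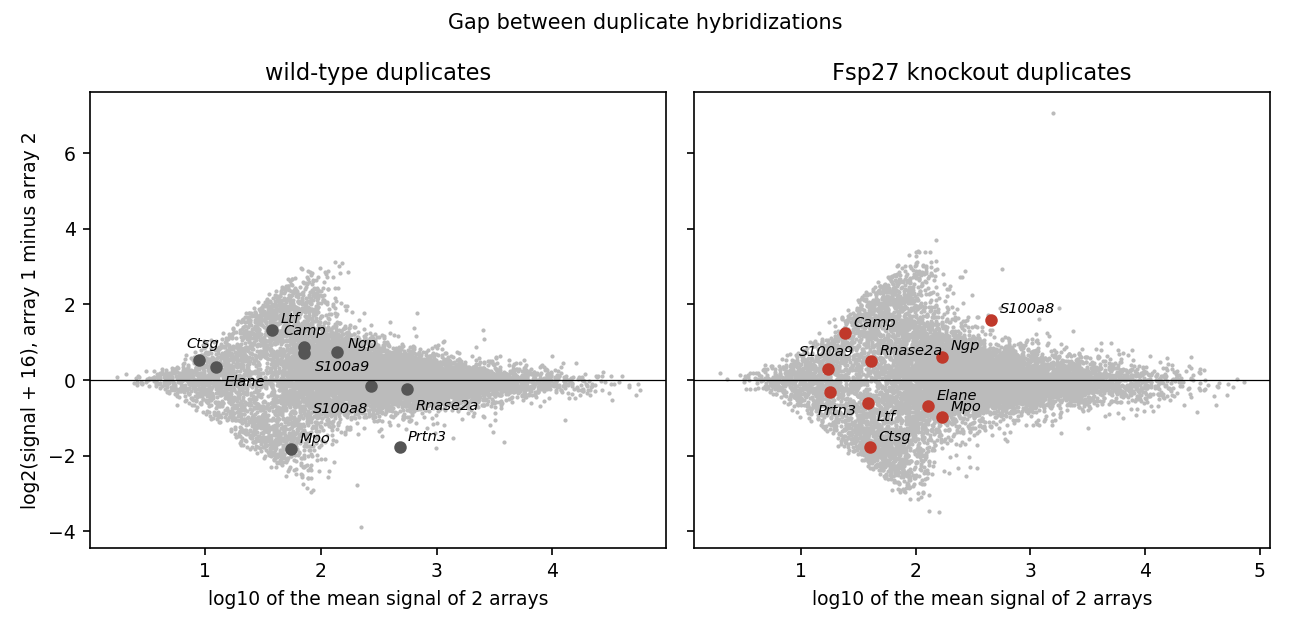
Difference of log2(signal + 16) between array 1 and array 2 of a genotype against the log10 of their mean signal, with the 10 granulocyte genes named. Grey points are all genes measured, each read from its brightest probe set. Prtn3 in the wild type, with a gap of 1.78, and S100a8 in the knockout, with one of 1.60, lie outside the bulk of probe sets of like signal, and Rnase2a lies within it.

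Of 73 other granulocyte genes in 4 lists, 49 were measured and 20 bright enough to test, and 7 were lower and 0 higher in the knockout (limma adjusted p under 0.05). Of all genes tested, 6.51% were lower and 5.79% higher, 555 and 493 genes, which became 355 and 592 with each array centred on its median. The median log2 difference was -1.10 over the 20 and -0.26 over the 49 measured. Over all genes tested it was -0.08, and over all genes measured -0.05. Some of the 20, such as Cybb and Ncf4, reached a mean signal of 100 only through the wild type, and Itgb2l only through the knockout. The median of the 20 thus depends on the filter. At an unadjusted p under 0.05, 12 of the 20 were lower and 2 higher. Without the first wild-type array 4 of the 20 were lower, without the second knockout array 13, and with no trend of the spread on the signal 0. All 7 are genes that macrophages express as well, so that they are not markers of granulocytes alone. In the list of macrophage and monocyte genes, which moved with them, 9 of 16 tested were lower and 0 higher (10 and 0 at an unadjusted p under 0.05), and the summed signal was 8532 to 8884 in the knockout and 21083 to 21140 in the wild type. Lgals3, galectin-3, gave 1415 and 654 in the knockout and 4821 and 4522 in the wild type (log2 difference -2.26, adjusted p = 3.8e-04), and Clec7a, a receptor of fungal glucans, and C1qc, a complement subunit, had differences of -1.70 (adjusted p = 0.0057, and 0.069 without the first wild-type array) and -1.54 (adjusted p = 4.9e-04). Of the defining markers of macrophages, Cd68 gave 292 and 338 against 618 and 1092, and Adgre1 gave 354 and 521 against 727 and 495. The part of macrophages in the signals of the 10 genes was not tested.

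Among the other primary granule genes, 1 of 5 tested passed: Lyz2, lysozyme M, which has a near-identical copy that could share its signal, gave 1511 and 1929 in the knockout and 6707 and 5114 in the wild type, a log2 difference of -1.77 (SE 0.20, adjusted p = 1.9e-04). Ms4a3, a marker of the same promyelocyte stage as Prtn3 and Elane, gave 175 and 123 against 120.2 and 108, with a log2 difference of 0.33 and adjusted p = 0.75. Among secondary and tertiary granule genes, 2 of 7 passed. They were Cyba, a subunit of the NADPH oxidase (log2 difference -1.16, adjusted p = 0.0087), and Lcn2, the siderophore-binding lipocalin (-0.97, adjusted p = 0.022). Itgb2l, an integrin subunit named here after its values were seen, gave 238 and 165 against 27.8 and 51.3 and did not pass (adjusted p = 0.096). Leaving out the second wild-type array took Cyba to adjusted p = 0.092, and leaving out the first took Lcn2 to 0.24. Centring each array took Lcn2 to adjusted p = 0.053.

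Of the neutrophil surface, signalling and lineage genes, 4 of 6 tested were lower in the knockout. Alox5ap, which presents arachidonic acid for leukotriene synthesis, gave 233 and 269.7 against 1033 and 834, a log2 difference of -1.83 (SE 0.24, adjusted p = 5.2e-04). S100a4, a calcium-binding relative of S100a8, had a difference of -1.52 (adjusted p = 0.0021). Itgb2, the shared beta subunit of leukocyte integrins, had -1.46 (adjusted p = 0.0056, and 0.085 without the first wild-type array), and Fcgr3, an IgG receptor, had -1.39 (adjusted p = 0.012, and 0.092 without the second wild-type array). Of the genes taken to define neutrophils, Lcn2 and S100a8, described above, were brighter, and S100a9 was near the floor. Lcn2 gave 399 and 547 in the knockout and 1072 and 808 in the wild type. The other markers measured were dim. Csf3r, the G-CSF receptor, gave 38.4 and 27.4 in the knockout and 31.5 and 111 in the wild type, and Cxcr2, the receptor for neutrophil chemokines, 17.8 and 24.8 against 6.49 and 18.3. Itgam gave 73.9 and 42.5 against 111 and 68.1, Mmp8 105 and 107 against 10.5 and 144, and Cd177 5.74 and 94.7 against 15.5 and 8.68. In all 5 the genotypes overlapped, and most of these signals were below 100. Ly6g and Retnlg had no probe set with a single symbol here.

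The eosinophil list held 11 measured genes, of which 2 were tested and 0 passed (2 lower and 0 higher at an unadjusted p under 0.05). Ear3, a relative of Rnase2a, gave 11.7 and 69.3 in the knockout and 196 and 307 in the wild type. Its log2 difference was -2.43 (SE 0.75, adjusted p = 0.053). Its probe set may cross-hybridize within this family of near-identical genes, so that its identity is uncertain. Rnase2b gave 3.48 and 3.01 against 51.1 and 1.77, at or below the floor throughout. Cd24a, the other gene tested, gave 267 and 399 in the knockout and 713 and 528 in the wild type (log2 difference -0.88, adjusted p = 0.056). Most signals of the defining genes of eosinophils were below the floor in both genotypes. Whether these genes shared the pattern of Rnase2a can therefore not be read from them. Epx, eosinophil peroxidase, gave 144 and 9.89 in the knockout and 103 and 34.3 in the wild type, and Prg2, major basic protein, 19.3 and 14.4 against 12.7 and 54.4. Ccr3, Siglecf and Il5ra did not exceed 38.0 on any array.

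**Figure D4:**
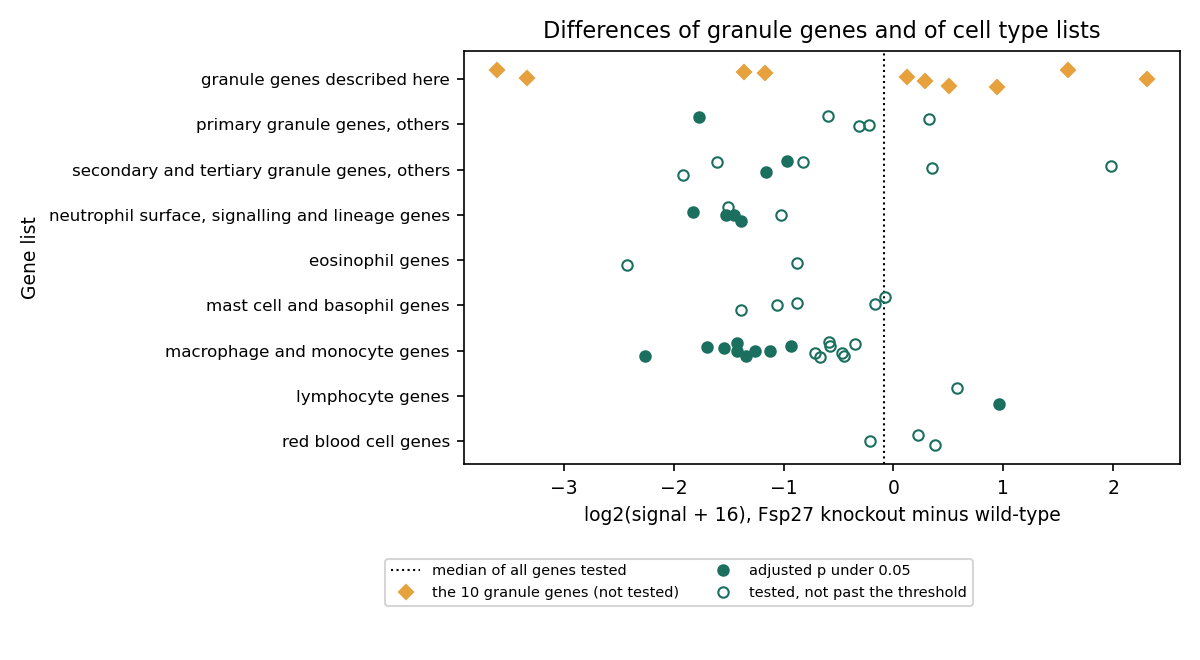
Difference of log2(signal + 16), knockout minus wild type, of the 10 granulocyte genes (diamonds, not tested) and of the genes tested in 8 other lists (circles, filled where the adjusted p was under 0.05), with the median of all genes tested as a dotted line. The lower genes past the threshold lie mainly in the macrophage list and in the neutrophil surface list, and the 10 granulocyte genes lie on both sides of 0.

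Mast cells store chymases, serine proteases of the same family as Ctsg. In the list of mast cell and basophil genes, 5 of 14 measured genes were tested and 0 passed (1 lower at an unadjusted p under 0.05). Cma1, mast cell chymase, gave 112 and 227 in the knockout and 319.8 and 383 in the wild type (log2 difference -1.06, adjusted p = 0.085). Mcpt4, another chymase, gave 7.19 and 21.4 against 73.2 and 202 and was too dim to test, as were Mcpt1, Mcpt2 and Mcpt8, at 64.9 or less on every array. Next to Ctsg on chromosome 14 lie Mcpt8 and Gzme, the latter at 33.4 or less on every array.

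Inhibitors of proteases and receptors of granule proteins were measured too. Of the protease inhibitors, 4 of 8 tested were lower and 0 higher (7 and 0 at an unadjusted p under 0.05). Serpinb6a, an inhibitor of cathepsin G, gave 913 and 1002 in the knockout and 2598 and 2796 in the wild type, a log2 difference of -1.48 (SE 0.19, adjusted p = 3.9e-04). Slpi, which inhibits elastase and cathepsin G, had a difference of -1.29 (adjusted p = 0.0021), and Serpina3n one of -0.85 (adjusted p = 0.011, and 0.13 without the second wild-type array). Serpinb1a, an inhibitor of Elane, Prtn3 and Ctsg, gave 16.6 and 16.8 against 92.5 and 117 and was too dim to test. A2m, of the same list and also too dim to test, ran the other way, at 129 and 116 against 12.6 and 23.8. Serpina1b gave 3135 and 7.41 against 1867 and 5832, and its genotypes overlapped (adjusted p = 0.15). Among receptors of granule proteins, 2 of 9 tested were lower and 0 higher (2 and 1 at an unadjusted p under 0.05). The median log2 difference of the 9 was 0.12. The 1 higher was P2rx7, at 302 and 207 in the knockout and 96.5 and 146 in the wild type (adjusted p = 0.16). Lrp1, a receptor of lactoferrin, had a difference of -0.80 (adjusted p = 0.012, and 0.11 without the first wild-type array). Lrp2, its relative, had one of -1.37 (adjusted p = 0.040), a call that held in 1 of 4 fits with an array left out (0.32 without the first wild-type array). Over the mean of its probe sets the difference of Lrp2 was -0.90 (adjusted p = 0.0996), and taken from the brightest probe set of each array it was -0.69 (adjusted p = 0.14). Centring each array gave Lrp1 and Lrp2 adjusted p = 0.063 and 0.058, and quantile normalization took Lrp2 to 0.071. Tlr4, a receptor of S100a8 and S100a9, gave 316 and 224 against 221 and 203, with adjusted p = 0.61. A dimmer probe set of Tlr4 ran the other way, at 15.5 and 99.5 in the knockout and 148 and 151 in the wild type. Of the factors that recruit granulocytes or let them grow, 1 of 6 was lower: Ccl11, the eosinophil chemokine eotaxin, gave 148 and 215 in the knockout and 476 and 339 in the wild type (log2 difference -1.10, adjusted p = 0.042). That call held in 1 of 4 fits with an array left out, and adjusted p was 0.41 without the first wild-type array. It was 0.070 with each array centred, 0.072 with quantile normalization and 0.13 with no filter on low signals.

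Other tissues and cells that a dissection could carry along were read from their own lists. Of red blood cell genes 0 of 3 tested passed, of epididymis genes 0 of 2 (0 at an unadjusted p under 0.05 in either list) and of the eye, pituitary and pancreas genes 0 of 4 (1 higher at an unadjusted p under 0.05). The 9 epididymis genes measured summed to 771 and 618 in the knockout and 615 and 1108 in the wild type. Lcn5 gave 80.3 and 21.3 against 14.1 and 431, Adam7 gave 71.3 and 68.4 against 87.4 and 141, and Ros1 gave 98.2 and 86.0 against 94.7 and 8.40, so that the list did not move together. Alas2, of red blood cells, gave 338 and 263 against 333 and 365. Of lymphocyte genes 1 of 2 was higher, Ighm, the immunoglobulin M heavy chain, at a log2 difference of 0.96 (adjusted p = 0.0026). That call was lost over the mean of its probe sets (0.17, adjusted p = 0.81), several of which ran the other way. Those were far dimmer, and the other bright probe set was higher in the knockout as well (21285 and 23019 against 15174 and 13866). Of the 12 lymphocyte genes measured, 5 had both knockout arrays above both wild-type arrays and 0 had both below, most of them too dim to test. Over all genes measured, 21.6% were above and 26.8% below. Over genes with a mean signal under 100, the shares were 19.2% and 16.7%. Of the 20 eye, pituitary and pancreas genes, 7 were above and 2 below, so that nothing is read from the lymphocyte count. Cd3e, a chain of the T cell receptor complex, gave 201 and 140.4 in the knockout and 21.9 and 31.0 in the wild type, Cd3g gave 115 and 92.6 against 35.4 and 4.35, and Ms4a1, the B cell protein CD20, gave 154 and 68.2 against 1.91 and 34.8. Cd3e, Cd3g and Ms4a1 were named after their values were seen. A second probe set of Ms4a1 overlapped, at 9.83 and 72.9 in the knockout and 73.7 and 33.8 in the wild type. Other genes of the list had negative log2 differences with overlapping arrays: Nkg7 -1.20, Cd79a -1.13, Klrd1 -1.05, Cd8a -0.93 and Il7r -0.73. Of adipocyte genes 1 of 8 was lower, Lep, which encodes leptin, at -1.33 (adjusted p = 8.9e-04). The part of these tissues in the signals of the 10 genes was not tested.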

How the data were processed

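Total RNA of gonadal WAT was labelled with biotin and hybridized to Affymetrix mouse genome arrays, 2 per genotype. The authors computed the deposited intensities, linear signals of 22690 probe sets, with GCOS (version and scaling target not given in the sources used here). Probe sets were named through the platform's annotation: 20393 had 1 symbol, 691 several and 1606 none, and 64 controls were left out. Each of 12393 genes was read from its 1-symbol probe set with the highest mean signal. The 8522 genes with a mean of at least 100 were tested on log2(signal + 16), knockout minus wild type, in R 4.3.3 with limma 3.58.1 (lmFit, eBayes with a trend, Benjamini-Hochberg, threshold 0.05; 2 residual degrees of freedom, 12.1 with the prior). Fold changes on this scale understate those of dim genes. The p-values cover technical spread alone, and an exact permutation test over the 4 arrays cannot go below 0.333. Precision is limited by the number of arrays.

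The 10 genes, 14 gene lists and tests were chosen with earlier results of these data known. Named genes were the 10, Cidec, up to 3 genes past the threshold from each list (those with the largest difference), defining cell type markers and relatives of the 10; any others were named after their values were seen. Promoters came from RefSeq (GRCm38.p6), 250 bases before each start, searched in Python 3.11.15; figures were drawn with matplotlib 3.10.9. Alternatives were other pseudocounts, filters, normalizations, probe set rules and floors, no trend, a replicate block, the methods' t-test and each array left out. The fit was tested on simulated data.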

Additional observations from a re-analysis of the deposited data

How the results depend on the processing

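Other pseudocounts and normalizations, 4 in all, gave 40 differences of the 10 genes, of which 7 moved by more than the spread between duplicates, all 7 with pseudocounts of 1 or 64. Of the other alternatives, 6 leave these differences as they are, since each gene has 1 probe set, and leaving out an array cannot move one by more than that spread, so that neither says anything about stability. With 1 array left out in turn, 4 to 5 of the 10 genes were lower and 2 to 5 higher with arrays apart, and their median log2 difference ran from -0.31 to 0.54. With the trpn controls as the floor, which was lower on the wild-type arrays, 7 genes exceeded it on both wild-type arrays in place of 4. On both knockout arrays the count stayed at 4.

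Over all genes, 493 were higher and 555 lower. Centring each array on its median gave 592 higher and 355 lower genes and moved the median difference of the genes tested from -0.08 to 0.06. Without the trend, 1 gene was higher and 0 lower, and 0 of the other granulocyte genes were lower. The methods' t-test called 1309 genes at an unadjusted p under 0.05 and 0 higher and 0 lower after Benjamini-Hochberg. With an array left out, 222 to 507 genes were higher and 206 to 880 lower (206 without the first wild-type array, 880 without the second knockout array), and 4 to 13 of the other granulocyte genes were lower in place of 7. The replicate numbers do not pair the arrays by any label, and the difference between duplicates correlated at 0.07 between genotypes. With the replicate number as a block, 11 of the other granulocyte genes were lower. The cause of these shifts was not tested. When an array was left out, the lone array of its genotype was assumed to vary like the other genotype's.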
